A study of Mus musculus with 4 samples.

Results

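Protein synthesis in the cytoplasm starts when initiation factors bring a messenger RNA, the initiator transfer RNA and the ribosomal subunits together. The genes of these factors were described here in leukemic mice, across cell classes of bone marrow and spleen. Members were all gene symbols of the deposited gene lists that begin with Eif and a digit from 1 to 6, leaving out the eIF2 kinases (Eif2ak genes) and names marked as pseudogenes. This gave 52 members of 32285 genes, of which 10 were Eif4e, Eif4g or Eif4ebp genes and are described singly. One symbol that meets the rule, Eif2c5, is not an initiation factor by its role and had 2 UMIs (unique molecular identifiers, each standing for 1 captured transcript) over all gated cells. Membership rests on the symbol alone, so other members may also act outside initiation. Eif4e1b, an egg-cell form of the cap-binding protein, had 0 UMIs in every cell class compared.

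All mice were C57BL/6J animals labelled as 6-8 weeks old, had received MA9 acute myeloid leukemia cells, which carry the MLL-AF9 fusion, and were given doxycycline in the drinking water for 7 days. Doxycycline switched on a short hairpin RNA against Prmt9, an arginine methyltransferase gene, in the transplanted cells of the shPrmt9 group, and a control hairpin in those of the Ctrl group. Recipients were wild type, so the hairpin was carried by the transplanted cells only. There were 4 libraries, BM-Ctrl and BM-shPrmt9 for bone marrow, with Spleen-Ctrl and Spleen-shPrmt9 for the spleen. The study's text speaks of a representative mouse for each group, but the labels do not tie the tissues to animals. The Y-linked member described last had 0 UMIs in each bone marrow library, host cells included. It had 7434 UMIs in Spleen-Ctrl and 6774 UMIs in Spleen-shPrmt9. Bone marrow and spleen of a group are therefore not taken to come from the same mouse, and any difference between the tissues may also be one between animals. There were no replicates, no test was possible, and every interval below is a 95% interval that covers counting error only.

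The libraries held between 8648 and 11315 cell barcodes and between 84009744 and 188030429 UMIs. The barcodes shared between any pair of libraries numbered 15 to 35, at most 0.405% of a library. Cells were gated by marker genes, and UMIs were summed over the cells of a class in each library and scaled to the total of the class (CPM, UMIs of a gene per 1000000 UMIs of that class and library). A 3′ count is 1 per captured transcript end, so CPM values of different genes can be set side by side without scaling by length. There were 12 class comparisons, 7 in bone marrow and 5 in spleen. The neutrophil progenitor class (156 and 237 cells) and the macrophage class (66 and 133 cells) of bone marrow were not compared, although they had enough cells. Statements below on classes cover only those compared. The MA9-like cells of bone marrow, gated by Hoxa9, Hoxa10, Hoxa7, Hoxa5, Meis1 and Pbx3, numbered 1413 in BM-Ctrl and 1565 in BM-shPrmt9, and Hoxa9 and Hoxa10 were among their 10 leading genes in each library, beside Elane, a neutrophil progenitor gene. The 38 cells of Spleen-Ctrl and 140 cells of Spleen-shPrmt9 that passed the same gate were led by Elane, Prtn3, Stfa1 and other genes of neutrophil development, with 0 of the gate's own markers in the top 10. The 6 gate markers summed to 436 CPM in these cells of Spleen-Ctrl and 470 CPM in those of Spleen-shPrmt9. In MA9-like cells they summed to 485 CPM in BM-Ctrl and 675 CPM in BM-shPrmt9. The spleen cells are called Hoxa-positive cells of spleen here, and were kept although Spleen-Ctrl had under 50 of them. A ratio is the CPM in shPrmt9 over that in Ctrl, and a member was counted as past the limit at 1.5-fold in either direction, if it had at least 30 UMIs over both libraries.

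The hairpin's target was measured first. Prmt9 in MA9-like cells of bone marrow stood at 11.9 CPM in BM-Ctrl (957 UMIs) and 6.24 CPM in BM-shPrmt9 (493 UMIs), a ratio of 0.526 (0.471 to 0.587). In the T-like and monocyte-like cells of the same libraries the ratio was 1.19 (0.613 to 2.29) and 1.01 (0.726 to 1.38). In T-like cells of spleen, which are host cells, Prmt9 was also lower in the shPrmt9 library, at 9.31 CPM against 15.3 CPM.

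As background, eIF2 carries the initiator transfer RNA to the small ribosomal subunit, where eIF1 and eIF1A keep the complex scanning until a start codon is met. eIF2B recharges eIF2 with GTP. eIF3 is the large platform on the small subunit. eIF4E binds the cap at the 5′ end of the messenger RNA, eIF4G joins it to eIF3 and to the poly(A)-binding protein, and the helicase eIF4A with eIF4B or eIF4H opens structure ahead of the ribosome. The eIF4E-binding proteins (4E-BPs, the Eif4ebp genes) compete with eIF4G for eIF4E, and are released from it when mTOR phosphorylates them. eIF5 and eIF5B complete the joining of the large subunit. Blood cancers are known for high demand on this machinery.

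In MA9-like cells of bone marrow, initiation factor RNA was lower in the shPrmt9 library. The summed level of all members was 13861 CPM in BM-Ctrl and 10630 CPM in BM-shPrmt9, a ratio of 0.767 (0.765 to 0.769). Of 48 members with enough UMIs, 10 were past 1.5-fold lower, 2 were past 1.5-fold higher and 36 were within the limit. The share lower was 20.8% of members against 15.6% of all 13253 genes measured in these cells, and the share higher was 4.17% against 20.8% of all genes. The median log2 ratio was −0.26 over members and 0.01 over all genes, and 33 members had a ratio below 1. By role, from 0 to 3 members were past the limit lower, and the spread over roles was not tested. The plot of members in MA9-like cells shows them by role.

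**Figure D1:**
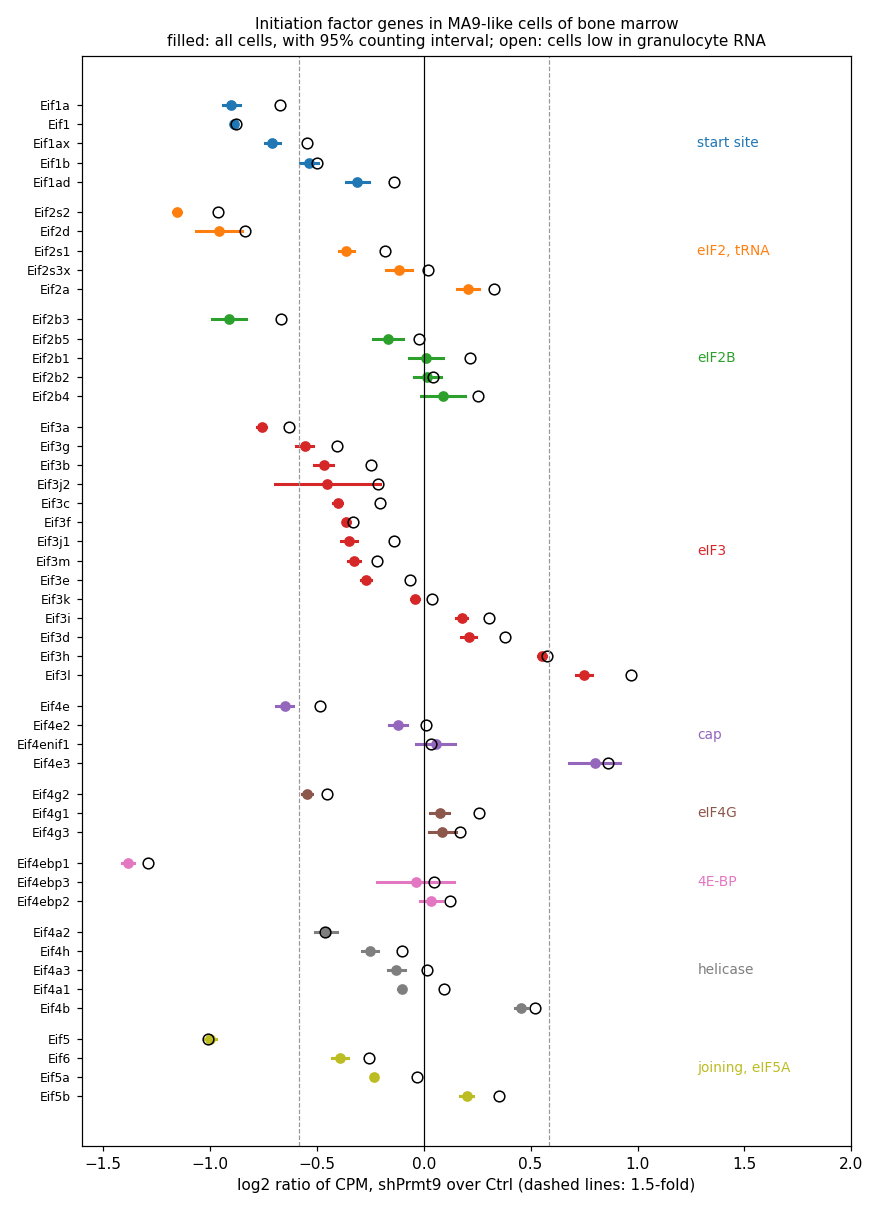
Log2 ratio of CPM (shPrmt9 over Ctrl) of the 48 measured members in MA9-like cells of bone marrow, grouped by role, with filled points for all cells, bars for 95% counting intervals and open circles for the cells low in granulocyte RNA. Eif4ebp1, Eif2s2 and Eif5 lie furthest to the left at −1.38, −1.15 and −1.001, and Eif4e3 and Eif3l are the points right of the upper dashed line.

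The start site factors were lower as a group. Eif1, which guards start codon choice and was the most abundant member, was counted at 2174 CPM in BM-Ctrl and 1174 CPM in BM-shPrmt9, a ratio of 0.540 (0.536 to 0.544). Eif1a and Eif1ax, which encode eIF1A, the partner of eIF1 in scanning, fell from 168 to 90.1 CPM and from 219 to 134 CPM. Eif1b and Eif1ad stayed within the limit, at log2 ratios of −0.54 and −0.31. Thus 3 of 5 members of this role were past the limit, with a summed level of 2775 CPM in BM-Ctrl and 1555 CPM in BM-shPrmt9. Eif1 and Eif1b, and Eif1a and Eif1ax, are similar pairs between which reads could be split, so values within a pair are less certain than their sum.

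For the ternary complex of eIF2, GTP and initiator transfer RNA, the subunits did not move together. Eif2s2, the beta subunit, stood at 993 CPM in BM-Ctrl (80184 UMIs) and 447 CPM in BM-shPrmt9 (35312 UMIs), a ratio of 0.450 (0.444 to 0.456). Eif2s1, the alpha subunit that stress kinases phosphorylate, had a log2 ratio of −0.36, and Eif2s3x, the gamma subunit, of −0.12. Eif2d, which can deliver transfer RNA without GTP, was at 25.8 and 13.3 CPM, a log2 ratio of −0.96. Eif2a, a separate factor for initiation away from the usual route, was at 70.02 and 80.9 CPM.

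The exchange factor eIF2B was nearly level apart from a single subunit. Eif2b3, the gamma subunit, was at 44.4 and 23.6 CPM, a ratio of 0.532 (0.503 to 0.563). The log2 ratios of Eif2b1, Eif2b2, Eif2b4 and Eif2b5 lay between −0.17 and 0.09. Eif2b2, the most abundant of these by UMIs over all classes, was at 52.1 and 52.7 CPM.

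Among the 14 eIF3 genes the ratios spread in both directions. Eif3a, the largest subunit and a core of the platform, was at 589 CPM in BM-Ctrl and 348 CPM in BM-shPrmt9, a ratio of 0.591. Eif3l was at 109 and 183 CPM, a ratio of 1.68 (1.64 to 1.73). Eif3h lay just within the limit at 453 and 665 CPM, as did Eif3g at 162 and 110 CPM. Eif3f, the most abundant of the group over all classes, was at 859 and 668 CPM. The summed level of the group was 4601 CPM in BM-Ctrl and 4123 CPM in BM-shPrmt9, a ratio of 0.896. Eif3j1 and Eif3j2 are near-identical copies, and Eif3j2 had 331 and 237 UMIs only, so its value is uncertain.

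The cap-binding genes diverged. Eif4e, the cap-binding protein itself, was at 181 CPM in BM-Ctrl (14591 UMIs) and 115.1 CPM in BM-shPrmt9 (9095 UMIs), a ratio of 0.637 (0.620 to 0.654). Eif4e3, a cap-binding relative that binds eIF4G but not the 4E-BPs, was at 11.6 and 20.2 CPM, a ratio of 1.74 (1.60 to 1.89). Eif4e2, a cap-binding repressor of translation, was at 121 and 112 CPM. Of the scaffolds, Eif4g1, the main eIF4G, was at 106 and 111 CPM, and its relative Eif4g3 at 52.0 and 55.2 CPM. Eif4g2, a form that lacks the eIF4E-binding part, was the most abundant scaffold, at 441 CPM in BM-Ctrl and 302 CPM in BM-shPrmt9, and stayed just within the limit.

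The largest fall of any member with at least 100 UMIs in MA9-like cells was in a cap inhibitor. Eif4ebp1, the gene of 4E-BP1, was at 448 CPM in BM-Ctrl (36172 UMIs) and 172 CPM in BM-shPrmt9 (13580 UMIs), a ratio of 0.384 (0.376 to 0.391), or 2.61-fold lower. Eif4ebp2 was at 78.8 and 80.7 CPM and Eif4ebp3 at 6.503 and 6.34 CPM, with ratios of 1.02 (0.989 to 1.06) and 0.9749 (0.861 to 1.10). UMIs of Eif4ebp1 per UMI of Eif4e were 2.48 (2.43 to 2.53) in BM-Ctrl and 1.49 (1.45 to 1.53) in BM-shPrmt9. Eif4ebp1 (ENSMUSG00000031490) occupies bases 27260329 to 27276674 of chromosome 8 in GRCm38, and Eif4e (ENSMUSG00000028156) bases 138526179 to 138559696 of chromosome 3, both on the plus strand.

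The summed level of the helicase group was nearly the same in both libraries, with a ratio of 0.979. Eif4a1, the main helicase, was at 758 and 707 CPM, and Eif4b, its activator, at 229 and 314 CPM. None of its 5 members was past the limit, the median log2 ratio was −0.13, and the summed level was 1378 CPM in BM-Ctrl and 1349 CPM in BM-shPrmt9. Of the joining factors, Eif5, which makes eIF2 hydrolyze its GTP at the start codon, was at 392 and 196 CPM, a ratio of 0.500 (0.490 to 0.509). Eif5b, the factor that joins the subunits, was at 182 and 209 CPM, and Eif5a, now known mainly for elongation, at 1365 and 1161 CPM.

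Other values moved with the group in these cells and belong beside these ratios. The 10 granulocyte markers, none at 0, summed to 8222 CPM in MA9-like cells of BM-Ctrl and 34207 CPM in those of BM-shPrmt9, and the median per cell was 1481 and 15548 CPM. T-like cells, which should lack these genes, had medians of 1407 CPM in BM-Ctrl and 4868 CPM in BM-shPrmt9. Granulocyte-like cells had less initiation factor RNA than MA9-like cells, at 4943 and 3323 CPM in all. A limit was then set at the 95th percentile of T-like cells of the same library. It was 4471 CPM in BM-Ctrl and 9254 CPM in BM-shPrmt9, so the libraries were not held to the same level. When only MA9-like cells at or below it were kept (968 and 665 cells), the summed level of members was 14272 CPM in BM-Ctrl and 11922 CPM in BM-shPrmt9, a ratio of 0.835 (0.833 to 0.838). Without Eif1, the most abundant member, the ratio in these cells was 0.887 (0.884 to 0.890). Of the members, 8 were then past 1.5-fold lower and 2 higher. The share of all genes past the limit was not counted in this subset, so these counts cannot be set against it. Eif4ebp1, Eif5, Eif2s2 and Eif1 had log2 ratios of −1.29, −1.01, −0.96 and −0.88, whereas Eif4e and Eif1ax came inside the limit at −0.49 and −0.54. The share of the granulocyte RNA in the remaining differences was not tested. Of the 12 cell cycle genes, 7 were past the limit higher and 0 lower in MA9-like cells, beside 20.8% and 15.6% of all genes, with a median log2 ratio of 0.75.

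Genes that act beside the initiation factors were counted in the same way. Of 40 measured genes for the poly(A)-binding proteins, mTOR signaling, elongation and release, 9 were past 1.5-fold lower in MA9-like cells and 0 higher, with a median log2 ratio of −0.21, where 15.6% of all genes were lower and 20.8% higher. Pabpc1, the poly(A)-binding protein that holds eIF4G on the message, was higher, at 740 CPM in BM-Ctrl and 940 CPM in BM-shPrmt9, a ratio of 1.27 (1.256 to 1.284).

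Promoters were read for the members. Of 52 members, 40 had a sequence in the RefSeq table (GRCm38.p6), taken as the 250 bases before the start of the gene, and Eif4ebp1 was not among them. The 3 below were chosen because Eif1 and Eif2s2 were lower in MA9-like, granulocyte-like and monocyte-like cells alike, and because Eif4ebp2, which was level in MA9-like cells, was lower in T-like cells of spleen. Bases that the annotation puts in an exon were left off. Capitals mark a match to the ETS motif CCGGAAG on either strand.
Eif1 (chr11:100319699-100319884, plus strand): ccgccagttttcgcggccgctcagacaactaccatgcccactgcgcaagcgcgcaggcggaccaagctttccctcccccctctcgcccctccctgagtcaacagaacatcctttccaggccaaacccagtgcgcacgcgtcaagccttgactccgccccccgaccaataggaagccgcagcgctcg
Eif2s2 (chr2:154892936-154893156, minus strand): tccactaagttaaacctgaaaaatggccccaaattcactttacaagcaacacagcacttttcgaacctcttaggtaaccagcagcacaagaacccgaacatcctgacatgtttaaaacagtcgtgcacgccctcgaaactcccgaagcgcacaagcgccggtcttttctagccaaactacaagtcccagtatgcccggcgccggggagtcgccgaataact
Eif4ebp2 (chr10:61452670-61452919, minus strand): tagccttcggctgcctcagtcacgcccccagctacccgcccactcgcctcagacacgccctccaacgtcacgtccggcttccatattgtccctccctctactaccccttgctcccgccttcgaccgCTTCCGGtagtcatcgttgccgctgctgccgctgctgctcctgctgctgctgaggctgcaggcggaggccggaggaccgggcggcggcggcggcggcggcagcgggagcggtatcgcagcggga

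Eif1 and Eif2s2 had no match to the E-box CACGTG, to the ATF4-type motif TGATGNAA or to the ETS motif in these windows, searched on both strands, and none of these motifs contains another. Over the whole 250 bases, 9 of 40 members held an E-box (22.5%), as did 6.02% of the 32851 promoters in the table and 6.86% of its 27025 genes. The ETS motif was in 12 members (30%), in 6.91% of promoters and in 7.83% of genes. The ATF4-type motif was in 1 member (2.5%), Eif2s3x, in 3.45% of promoters and in 3.91% of genes. A member with several listed starts was counted if any of them held the motif, so the share of genes is the like measure for members. These are matches of letters, and binding was not measured.

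In bone marrow, the other myeloid classes compared had several of the same members lower. The share of members lower was near that of all genes in monocyte-like cells and under it in basophil-like cells. These classes share their libraries with the MA9-like cells, so their values are set side by side and not taken as separate evidence. In monocyte-like cells (659 and 302), 9 of 48 members were past the limit lower (18.8%, against 16.4% of all genes) and 0 higher (against 11.7%). Eif4ebp1 was at 330 CPM in BM-Ctrl and 148 CPM in BM-shPrmt9, Eif2s2 at 700 and 351 CPM, Eif1 at 2228 and 1219 CPM, and Eif2b3 at 22.4 and 11.8 CPM. Eif4e was within the limit at 114 and 84.3 CPM. The summed level of members was 10811 CPM in BM-Ctrl and 7896 CPM in BM-shPrmt9. Among cells low in granulocyte RNA 8 members were past the limit lower, with no share of all genes counted there. The 6 MA9 markers summed to 46.9 and 46.1 CPM in all monocyte-like cells, against 485 and 675 CPM in MA9-like cells. Of the 12 cell cycle genes, 6 were past the limit lower in monocyte-like cells and 0 higher, beside 16.4% and 11.7% of all genes. Their part in the ratios was not tested.

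In granulocyte-like cells (3363 and 5119), 17 of 48 members were past the limit lower (35.4%, against 20.8% of all genes) and 0 higher (against 5.32%). Eif2s2 was at 209 and 106 CPM, Eif1 at 1843 and 948 CPM, and Eif4e at 23.8 and 13.6 CPM. Eif4ebp1 changed little here, at 144 and 123 CPM, so UMIs of Eif4ebp1 per UMI of Eif4e were 6.04 (5.47 to 6.68) in BM-Ctrl and 9.06 (8.33 to 9.86) in BM-shPrmt9. The median log2 ratio was −0.41 over members and −0.31 over all genes, and the granulocyte markers made up 359899 CPM in BM-Ctrl and 437716 CPM in BM-shPrmt9. The median UMIs per cell were 4629 in BM-Ctrl and 7785 in BM-shPrmt9. Of the 12 cell cycle genes, 6 were past the limit lower and 0 higher, beside 20.8% and 5.32% of all genes. The part of these values in the ratios was not tested. With edgeR's TMM factors, which set the bulk of genes level, 2 members were past the limit lower, with no share of all genes counted. In basophil-like cells (100 and 123), 4 of 46 members were past the limit lower (8.70%, against 11.6% of all genes) and 0 higher (against 9.08%), and these were Eif2s2 (525 and 284 CPM), Eif4ebp1 (151 and 86.2 CPM), Eif1 (1784 and 1176 CPM) and Eif4b.

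Lymphoid cells of bone marrow had few members past the limit. In T-like cells (272 and 169), 3 of 46 members were lower (6.52%, against 10.7% of all genes) and 0 higher (against 10.4%). Eif4ebp1 was at 62.9 CPM in BM-Ctrl (123 UMIs) and 28.0 CPM in BM-shPrmt9 (38 UMIs), a ratio of 0.445 (0.301 to 0.645), and was the only one of the 3 with at least 100 UMIs. The others were Eif4e3 (63 and 28 UMIs) and Eif4ebp3 (29 and 12 UMIs), whose intervals included a ratio of 1. Eif4e was at 57.3 and 59.7 CPM, Eif2s2 at 420 and 405 CPM and Eif1 at 1613 and 1551 CPM. Neutrophil progenitor genes, which summed to 9463 and 11823 CPM in the MA9-like cells, summed to 134 and 178 CPM in these T-like cells.

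In B-like cells of bone marrow (1080 and 99), 1 of 47 members was past the limit lower (2.13%, against 14.9% of all genes) and 4 higher (8.51%, against 11.4%). The 4 were Eif2a (54.5 and 93.7 CPM), Eif4e3 (22.4 and 35.5 CPM), Eif2b1 (17.8 and 28.0 CPM) and Eif2b5 (34.3 and 51.7 CPM), and the lower one was Eif4ebp3 with 81 and 8 UMIs. Eif4ebp1 was at 114 and 79.7 CPM, a log2 ratio of −0.52, and Eif4e at 67.4 and 68.9 CPM. The BM-shPrmt9 sums rest on 99 cells, and the granulocyte markers summed to 5035 CPM in BM-Ctrl and 21191 CPM in BM-shPrmt9. In the cells low in granulocyte RNA, 2 members were past the limit in each direction, with no share of all genes counted there.

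In the spleen, lymphoid cells showed Eif4ebp1 on the other side. In T-like cells (2104 and 2727) it was at 29.6 CPM in Spleen-Ctrl, from 581 UMIs, and 53.3 CPM in the Spleen-shPrmt9 library, from 1391 UMIs, a ratio of 1.80 (1.64 to 1.99). In B-like cells (5483 and 803) it was at 42.7 and 84.0 CPM, a ratio of 1.97 (1.82 to 2.13). In NK-like cells (106 and 185) it was at 106 and 184 CPM, a ratio of 1.74 (1.46 to 2.08). All 3 ratios were above 1.5, whereas in the MA9-like, T-like, B-like, monocyte-like and basophil-like cells of bone marrow they lay between 0.384 and 0.698. The other classes of bone marrow differed from these, with ratios of 0.856 in granulocyte-like and 1.16 in erythroid-like cells. With cells thinned to 2000 UMIs, the log2 ratio turned to 0.19 in B-like and 0.57 in basophil-like cells of bone marrow, and with TMM factors to 0.10 in granulocyte-like and −0.02 in erythroid-like cells.

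Eif4e3 fell in the same T-like and B-like cells. In T-like cells of spleen it was at 69.4 CPM in Spleen-Ctrl against 33.5 CPM in the Spleen-shPrmt9 library, a ratio of 0.482 (0.442 to 0.525), and in B-like cells at 24.6 and 11.8 CPM, a ratio of 0.481 (0.398 to 0.577). Eif4ebp2 was the other member past the limit lower in T-like cells, at 111 and 70.5 CPM. Eif2s2 and Eif5 rose there, from 394 to 598 CPM and from 259 to 394 CPM, each a ratio of 1.52. In all, T-like cells of spleen had 2 of 50 members lower (4%, against 18.3% of all genes) and 3 higher (6%, against 8.96%). B-like cells of spleen had 2 of 50 lower (4%, against 17.9%) and 1 higher (2%, against 7.92%), the second lower member being Eif5a2, a rare form of eIF5A, with 96 and 15 UMIs. NK-like cells had 2 of 48 lower (4.17%, against 11.9%), Eif2b3 and Eif2d, and 1 higher (2.08%, against 16.3%), Eif4ebp1.

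Eif4e itself was level in T-like cells of spleen (58.0 and 61.8 CPM) and in B-like cells (52.6 and 55.1 CPM), and was 130 and 91.0 CPM in NK-like cells. UMIs of Eif4ebp1 per UMI of Eif4e were 0.510 and 0.862 in T-like cells, 0.811 and 1.52 in B-like cells and 0.816 and 2.02 in NK-like cells, in the order Spleen-Ctrl and Spleen-shPrmt9, and in none of these pairs did the intervals overlap. Values that moved beside these were the erythroid markers, at 289 and 3179 CPM in T-like, 336 and 2234 CPM in B-like and 242 and 30802 CPM in NK-like cells, and the cell cycle genes. Of these genes, 8 of 12 were past the limit lower in T-like cells, 9 of 12 higher in B-like cells and 7 of 8 lower in NK-like cells, beside 18.3%, 7.92% and 11.9% of all genes past the limit in these directions. Their part in the Eif4ebp1 and Eif4e3 ratios was not tested.

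**Figure D2:**
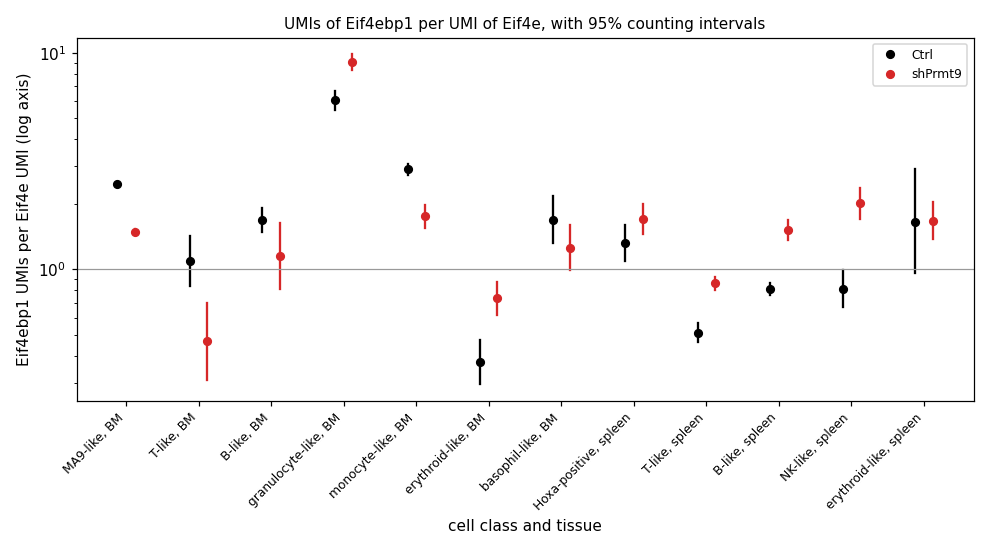
UMIs of Eif4ebp1 per UMI of Eif4e in each cell class (log axis), black for Ctrl and red for shPrmt9, with 95% counting intervals. The red point is below the black one in MA9-like (1.49 against 2.48), T-like and monocyte-like cells of bone marrow, and above it in granulocyte-like (9.06 against 6.04) and erythroid-like cells of bone marrow (0.735 against 0.374) and in T-like, B-like and NK-like cells of spleen.

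The Hoxa-positive cells of spleen had the lowest values relative to their control, on few cells. Of 48 members, 28 were past the limit lower (58.3%, against 27% of all genes) and 1 higher (2.08%, against 19.5%), and the summed level was 12233 CPM in Spleen-Ctrl against 7257 CPM in the Spleen-shPrmt9 library. The 4 furthest down with at least 100 UMIs were Eif1a, Eif2s1, Eif3e and Eif3b, at log2 ratios of −1.85, −1.63, −1.51 and −1.49. Eif4e was at 139 and 62.2 CPM, Eif4ebp1 at 184 and 107 CPM and Eif4g1 at 122 and 68.0 CPM, while Eif1 was at 1410 and 1386 CPM. In these cells the neutrophil progenitor genes summed to 6736 and 1644 CPM, the granulocyte genes to 35968 and 145250 CPM and the erythroid markers to 179 and 8344 CPM. Their part in the ratios was not tested. Fewer than 50 cells were low in granulocyte RNA in either library, and no value without it could be given.

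Erythroid-like cells have UMI totals dominated by globin. In bone marrow (689 and 1240 cells), 1 of 45 members was lower (2.22%, against 4.52% of all genes) and 8 higher (17.8%, against 28.6%). With TMM factors 3 members were higher there, with no share of all genes counted. Eif5b was at 39.6 and 108 CPM, Eif6, which keeps the large subunit apart until it is mature, at 13.5 and 30.1 CPM, and Eif4e, the lower one, at 64.7 and 38.3 CPM. Eif5 was higher in erythroid-like than in the other bone marrow classes, at 971 and 1069 CPM. In spleen (191 and 1698 cells), 20 of 45 members were lower (44.4%, against 65.4% of all genes) and 0 higher (against 6.54%). The median log2 ratio over all genes there was −0.86, and the members' median of −0.51 lay above it. With TMM factors, 1 member was past the limit lower and 19 higher, so no direction is given for members in these cells.

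**Figure D3:**
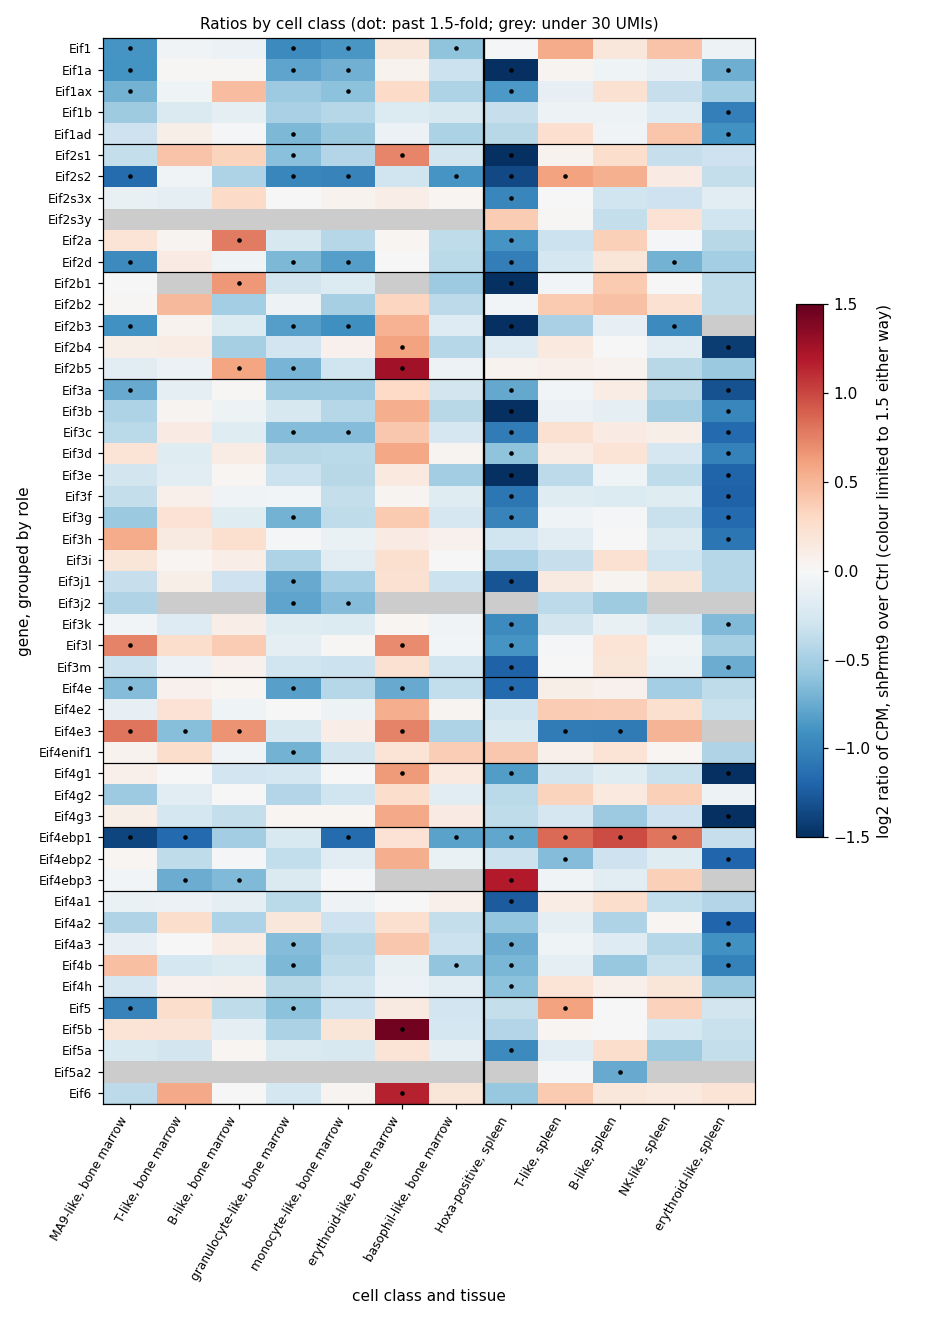
Log2 ratio of CPM (shPrmt9 over Ctrl, in color) of each member (rows, grouped by role) in the 12 comparisons (columns, bone marrow left of the thick line), with a dot where a member was past 1.5-fold and gray where it had under 30 UMIs. Eif2s2 and Eif1 are blue across MA9-like, granulocyte-like, monocyte-like and basophil-like cells of bone marrow, and Eif4ebp1 is blue in MA9-like, T-like and monocyte-like cells of bone marrow, pale in granulocyte-like and erythroid-like cells there, and red in the lymphoid cells of spleen.

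Across classes within a library, MA9-like cells were high in some of these genes and ordinary in others. In BM-Ctrl, Eif4ebp1 descended from MA9-like (448 CPM) through monocyte-like (330 CPM), basophil-like (151 CPM), granulocyte-like (144 CPM), B-like (114 CPM) and T-like (62.9 CPM) to erythroid-like cells (24.2 CPM), and only the basophil-like and granulocyte-like intervals overlapped. MA9-like cells were 7.12 times T-like cells (5.97 to 8.57) in BM-Ctrl and 6.13 times (4.47 to 8.67) in BM-shPrmt9. For Eif4e in BM-Ctrl, MA9-like cells (181 CPM) stood above monocyte-like cells (114 CPM) and granulocyte-like cells were lowest (23.8 CPM), with neighbors among basophil-like, B-like, erythroid-like and T-like cells overlapping at 88.8 to 57.3 CPM. In BM-shPrmt9 MA9-like cells remained highest for Eif4e (115.1 CPM) and Eif4ebp1 (172 CPM).

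Eif4g2 had the same leading pair in BM-Ctrl, MA9-like at 441 CPM and monocyte-like at 320 CPM, and erythroid-like cells were lowest at 90.7 CPM. Eif4g1 was nearly equal in monocyte-like (108 CPM) and MA9-like cells (106 CPM), whose intervals overlapped, and low in granulocyte-like (23.6 CPM) and erythroid-like cells (13.3 CPM). Eif4g3 lay between 42.5 and 69.1 CPM in every class of BM-Ctrl but the erythroid-like (5.35 CPM), with MA9-like cells at 52.0 CPM. Eif4e2 was 121 CPM in MA9-like cells, which overlapped T-like cells at 104 CPM, and 46.4 CPM in granulocyte-like cells. Eif4ebp2 lay between 78.8 and 95.6 CPM in the 6 other classes of BM-Ctrl and at 14.2 CPM in erythroid-like cells, and each neighboring pair of those 6 overlapped. Eif4e3 was lower in MA9-like cells (11.6 CPM) than in any class but the erythroid-like (1.86 CPM), and the top of its order, basophil-like cells at 40.6 CPM, overlapped T-like cells at 32.2 CPM. Eif4ebp3 did not exceed 14.8 CPM in any class of BM-Ctrl.

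In Spleen-Ctrl, NK-like cells led for Eif4g1 (172 CPM) and for Eif4e2 (142 CPM, overlapping Hoxa-positive cells at 120 CPM), and T-like cells led for Eif4e3 (69.4 CPM) and Eif4ebp2 (111 CPM). In Spleen-shPrmt9, NK-like cells led for Eif4ebp1 (184 CPM) and Eif4e (91.0 CPM), and Eif4e3 no longer separated T-like (33.5 CPM) from NK-like cells (29.9 CPM). Eif4g2 was 206 and 260 CPM in T-like, 193 and 214 CPM in B-like and 260 and 332 CPM in NK-like cells of Spleen-Ctrl and Spleen-shPrmt9, and Eif4g3 in B-like cells was 65.9 and 45.2 CPM. The plot of levels by class shows these orders for the 9 detected genes.

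**Figure D4:**
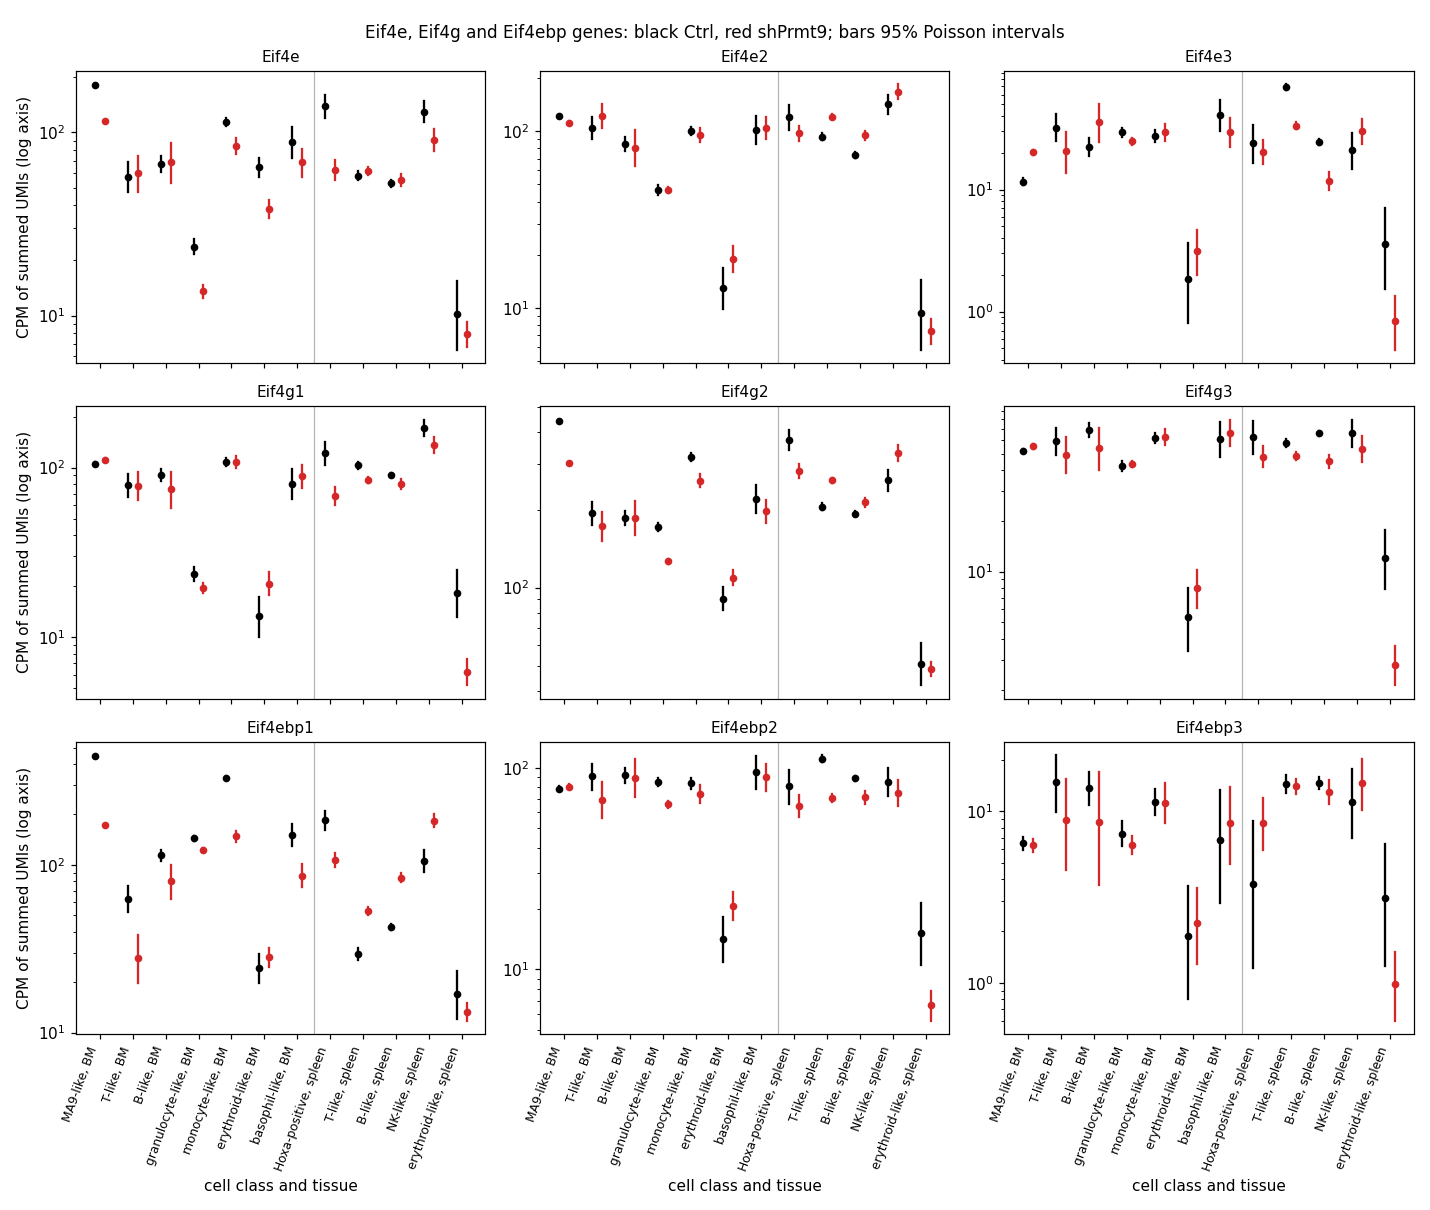
CPM of summed UMIs (log axes) of the 9 detected Eif4e, Eif4g and Eif4ebp genes in each cell class, black for Ctrl and red for shPrmt9, with 95% Poisson intervals and a gray line between bone marrow and spleen. Eif4ebp1 in MA9-like cells is at 448 and 172 CPM, while Eif4ebp2 is near 79 CPM in the control and level between the libraries there.

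The gamma subunit of eIF2 has a gene on each sex chromosome, and the libraries differed in the one on Y. Eif2s3y (chromosome Y from 1010543 to 1028847, plus strand) had 0 UMIs of 171461718 in BM-Ctrl and 0 of 188030429 in BM-shPrmt9, which allows up to 0.0175 and 0.0160 CPM at 3 counts. It had 7434 UMIs in Spleen-Ctrl (88.5 CPM) and 6774 in Spleen-shPrmt9 (61.8 CPM). T-like cells of spleen were at 82.8 CPM (78.8 to 86.9) and 83.8 CPM (80.3 to 87.4), B-like cells at 101 and 79.4 CPM, and NK-like cells at 85.3 and 98.8 CPM. The Hoxa-positive cells of the same libraries were far lower, at 5.99 CPM (8 UMIs, 2.58 to 11.8) and 7.81 CPM (31 UMIs, 5.31 to 11.1), found in 6 of 38 and 18 of 140 cells.

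Eif2s3x (chromosome X from 94188707 to 94212862, minus strand) differed less between the tissues. It was at 53.0 and 48.9 CPM in MA9-like cells, 46.5 and 42.0 CPM in bone marrow T-like cells, 40.5 and 40.3 CPM in spleen T-like cells, and 56.9 and 29.0 CPM in Hoxa-positive cells. In bone marrow no UMI went to Eif2s3y although its near copy Eif2s3x was counted in every class. The libraries of bone marrow and spleen thus differed in this Y-linked gene as well as in tissue, host T-like cells included. A difference between the tissues may therefore also be one between animals, and these cannot be told apart.

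**Figure D5:**
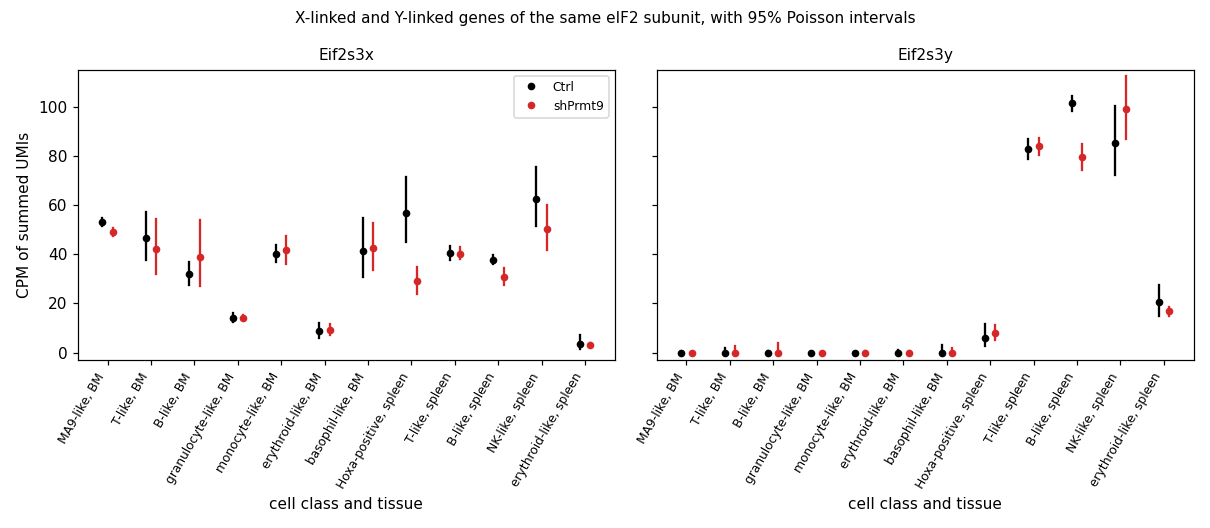
CPM of Eif2s3x (left) and Eif2s3y (right) in each cell class, black for Ctrl and red for shPrmt9, with 95% Poisson intervals. Eif2s3y is at 0 in all 7 bone marrow classes, near 80 to 100 CPM in lymphoid cells of spleen and under 10 CPM in Hoxa-positive cells.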

How the data were processed

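Single-cell 3′ RNA-seq counts of 4 libraries were used, 1 per group, grouped by library title. The deposited values are UMI counts per gene and cell barcode, made by the authors with Cell Ranger (6.1.1 in the submitters' processing notes, 6.0.2 per the file headers) on mm10. Members, gene lists and markers were chosen with earlier results of these data known. Barcodes under 200 detected genes, or over 20% of UMIs from mitochondrial genes, were dropped. Each cell was scored for 14 marker classes by the mean of its markers relative to all cells, and was gated if at least 2 markers were detected, the score was at least 2-fold and the next class was at least 2-fold lower. Neutrophil progenitor genes did not compete with the MA9 gate, since MA9 cells use them too. The gate was set after the data had been seen. No doublet caller was run, and the 885, 1450, 313 and 396 cells (BM-Ctrl, BM-shPrmt9, Spleen-Ctrl, Spleen-shPrmt9) with a close second class were left out as possible doublets. In all, 1576, 2017, 875 and 2034 kept cells had no class. Classes with under 50 cells in a library were not compared, except the Hoxa-positive cells. The neutrophil progenitor and macrophage classes of bone marrow passed this limit in both libraries, but were not among the classes compared. The authors' cell labels were not used here.

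UMIs were summed per class and library (Python 3.11.15, numpy 2.4.6, scipy 1.17.1, pandas 2.3.3). Levels have exact Poisson intervals, and ratios exact conditional binomial (Clopper-Pearson) intervals. Both cover counting error only. Named were all Eif4e, Eif4g and Eif4ebp genes, in each main comparison up to 4 members furthest up and 4 furthest down with at least 100 UMIs past the limit, and the most abundant of each role. Others named were chosen after their values were seen. TMM factors came from edgeR 4.0.16 in R 4.3.3, with no model fitted. Interval and ratio code was tested on simulated data. In all, 10 alternatives were tried, 1 of them, the cells low in granulocyte RNA, chosen after seeing the data. Positions of genes come from GENCODE (GRCm38), and promoters from RefSeq.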

Additional observations from a re-analysis of the deposited data

Results flagged for a closer look

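In 4 genes of these cells the ratio passed 1.5-fold in opposite directions in the 2 tissues, and the difference was not tested, since each group had 1 library. The tissues may also be of different animals. Eif4ebp1 in T-like cells had a log2 ratio of −1.17 in bone marrow and 0.85 in spleen, a difference of −2.02. Eif4e3 in B-like cells had 0.67 in bone marrow and −1.06 in spleen, a difference of 1.73. In erythroid-like cells Eif2b4 had 0.61 and −1.43, a difference of 2.03, and Eif4g1 had 0.64 and −1.55, a difference of 2.20. Eif2b4 rests on few UMIs. In the erythroid-like cells of bone marrow low in granulocyte RNA it had 17 and 37 UMIs. Its ratio there was 1.38 (0.760 to 2.62), within the limit and with an interval that included 1. The erythroid-like values of spleen move with the scaling, and all genes there had a median log2 ratio of −0.86.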

How the results depend on the processing

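Each group had 1 library, so no library could be left out, and no paired analysis was possible because the groups share no replicates. Single ratios were recomputed for part of the members only, which left out Eif1ax and Eif2b4 among others. Of 3192 such values, 2605 lay within the counting interval of the reported ratio, and 352 had the opposite sign to it, of which 7 were of members past 1.5-fold. The counts of members past the limit that moved by over 1.5 times are given here, and the others stayed within that. The share of all genes past the limit was counted with the main settings only.

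At a 2-fold limit, bone marrow had 3 lower and 0 higher in MA9-like, 1 lower in T-like, 0 lower and 0 higher in B-like, 0 lower in granulocyte-like, 1 lower in monocyte-like, 0 lower and 3 higher in erythroid-like and 0 lower in basophil-like cells. Spleen then had 15 lower in Hoxa-positive, 1 lower and 0 higher in T-like, 1 lower and 0 higher in B-like and 0 lower and 0 higher in NK-like cells. With cells thinned to 2000 UMIs, bone marrow had 1 higher in MA9-like, 3 higher in T-like, 3 lower and 10 higher in B-like, 3 lower and 3 higher in erythroid-like and 2 lower and 1 higher in basophil-like cells. Spleen then had 15 lower and 0 higher in Hoxa-positive, 1 lower and 2 higher in B-like, 3 higher in NK-like and 9 lower and 1 higher in erythroid-like cells. With no filter on low counts, bone marrow had 1 higher in T-like, 3 lower in B-like, 1 higher in monocyte-like and 3 lower in erythroid-like cells. With the stricter gate, bone marrow had 1 higher in T-like, 3 lower in B-like and 7 lower in basophil-like cells. Spleen then had 0 higher in Hoxa-positive, 0 higher in T-like, 2 higher in B-like, 1 lower in NK-like and 2 higher in erythroid-like cells. With means of per-cell CPM, bone marrow had 2 higher in T-like, 2 lower in erythroid-like and 1 higher in basophil-like cells. Spleen then had 9 lower and 6 higher in erythroid-like cells. Without the 5% of cells with most UMIs, bone marrow had 1 higher in T-like, 0 lower in B-like, 5 higher in erythroid-like and 2 lower in basophil-like cells. Spleen then had 2 higher in NK-like and 1 higher in erythroid-like cells. With totals that leave out abundant gene families, bone marrow had 3 lower and 2 higher in B-like and 2 lower and 3 higher in erythroid-like cells. Spleen then had 1 higher in T-like, 5 lower in NK-like and 1 higher in erythroid-like cells. In cells low in granulocyte RNA, chosen after seeing the data, bone marrow had 2 lower and 2 higher in B-like cells. With cells of a close second class kept, bone marrow had 2 higher in B-like, 17 lower in monocyte-like and 2 lower in basophil-like cells. With TMM factors, bone marrow had 2 lower in granulocyte-like, 3 higher in erythroid-like and 2 lower in basophil-like cells. Spleen then had 2 higher in Hoxa-positive, 1 lower in T-like, 2 higher in B-like and 1 lower and 19 higher in erythroid-like cells.

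The turns of direction given next are only those of members recomputed singly, and the other members are not covered. Of these members past 1.5-fold, the log2 ratio turned with thinned cells for Eif2b1 in B-like (−0.10), Eif4g1 in erythroid-like (−0.10) and Eif4ebp1 in basophil-like cells of bone marrow (0.57). In erythroid-like cells of spleen it turned for Eif1a (0.30), Eif3b (0.054) and Eif4b (0.019) with TMM factors, and for Eif3b (0.37) with per-cell means. Among members within the limit, Eif4ebp1 turned to 0.19 in B-like cells of bone marrow with thinned cells, and in erythroid-like cells of spleen, with TMM factors, Eif4ebp1 turned to 0.68 and Eif4g2 to 0.96. The cause was not tested.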
